A study of Drosophila melanogaster with 9 samples.

Results

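Embryos with reduced function of hemipterous (hep) were compared with wild-type embryos at the stage of dorsal closure, over all 10844 genes measured. The comparison used 6 of the 9 arrays of the series, 3 for each of both groups. LOF embryos had the genotype y w heprev75/y w hep1, which combines a pair of hep alleles. WT embryos carried w. The third group, GOF, had the genotype w;UAS-hepACT/+;69B/+, in which 69B-GAL4 drives activated Hep in the ectoderm. Its 3 arrays entered the fit to estimate the spread between arrays and are quoted beside single genes. All groups carried w, and LOF also carried y, so the hep alleles cannot be told apart from other differences between the stocks. No source used here gives the cross behind the LOF embryos or the share of collected embryos with that genotype. Whole dechorionated embryos were aged about 9 h at 25 °C to stages 13 to 14, and a collection was used when more than 85% of it was staged so by dpp in situ hybridisation. Each array received 1 of 3 independently prepared RNA samples of its group (2 µg of total RNA).

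Hep is the kinase that phosphorylates and activates Basket, the fly Jun N-terminal kinase (JNK), and is itself activated by kinases such as Slipper. JNK acts through the transcription factors Jra (Jun) and kay (Fos). At the front of the advancing epidermis it induces puc, which encodes a JNK phosphatase, and the BMP ligand dpp, and embryos without the pathway fail to close dorsally. Since whole embryos were measured, fewer cells of a type and less RNA per cell cannot be told apart.

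The values are the deposited intensities of a 1-colour array, summarised per probe set and returned by the authors to a linear scale, and each gene is represented by its brightest probe set. A change is the difference of group means of log2(intensity + 1), LOF minus WT, with its standard error (SE), and a gene is called changed at an adjusted p under 0.05 (limma, Benjamini-Hochberg over all genes). No source used here names the base with which the values were returned to a linear scale. The highest intensity was 1331513, which is 20.34 as log2 and 14.1 as natural log. On at least 1 array, 239 probe sets lay above the limit of a 16-bit scan. If the scans were 16-bit, log2 values that high would be out of range, which makes base e the likelier. The scan depth was not tested. With base e every log2 change would shrink by the factor 0.693, and fold changes are therefore given under base 2 and base e for the main genes. Array medians lay between 688 and 709. Correlations across genes were 0.996 to 0.997 among LOF arrays, 0.995 to 0.996 among WT arrays and 0.989 to 0.994 between both groups.

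In LOF embryos 512 genes (4.72%) changed. Of these, 147 (1.36%) were higher than in WT embryos and 365 (3.37%) were lower. The changes were small: the median was 0.57 among the genes that rose and -0.58 among those that fell, against 0.02 over all genes. A rise of at least 2-fold was found for 19 genes and a fall of at least 2-fold for 20 (1 and 8 with base e). A fall of at least 4-fold was found for 4 genes (1 with base e), and a rise of that size for 0. In all 512 genes the 3 LOF arrays lay wholly above or below the 3 WT arrays. That separation was found in 1421 genes above (13.1%) and 1360 below (12.5%). The median WT intensity was 2192 for the genes that fell, 1323 for those that rose and 797.3 for all genes. WT intensity enters the change by which genes were called. It therefore cannot show whether the genes that fell were brighter than those that rose. A name other than a CG or CR number is lacking for 177 of the changed genes.

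**Figure D1:**
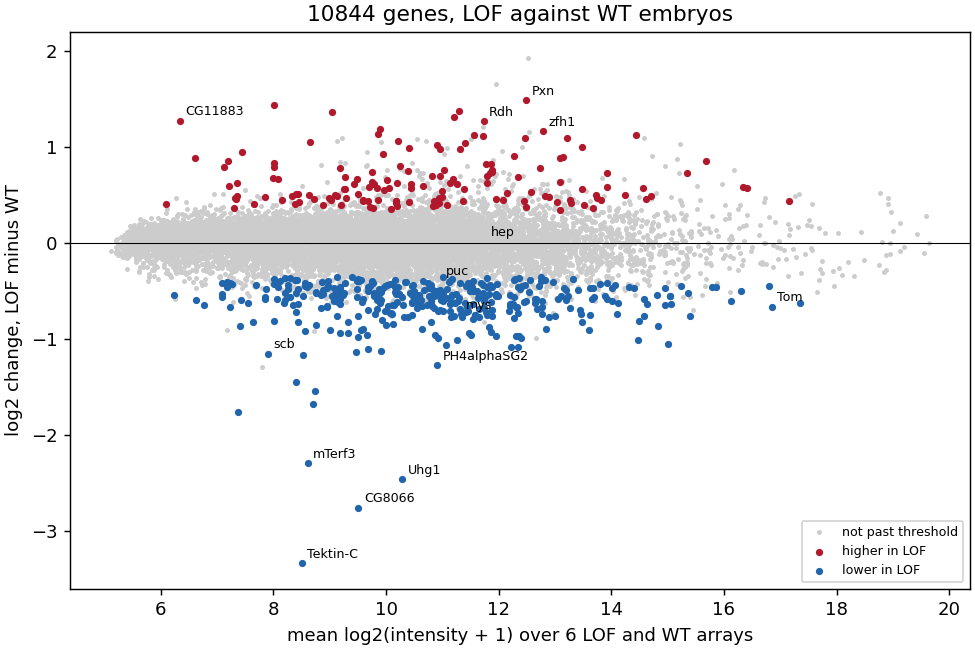
Log2 change (LOF minus WT) of 10844 genes against their mean log2(intensity + 1) over the 6 LOF and WT arrays, with genes higher in LOF in red, lower in LOF in blue and genes not past the threshold in grey. The 365 blue points outnumber the 147 red ones, and 4 of them lie apart below a change of -2.

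The number of calls rested on single arrays. It was 260 without LOF replicate 1, 161 without LOF replicate 2, 290 without LOF replicate 3 and 138 without WT replicate 1, while 365 and 467 genes passed without WT replicates 2 and 3. Of the 512 genes, 117 stayed past the threshold in each of 20 alternative settings, in which single arrays were left out or the normalization, filter or probe set rule was changed. These are called stable in what follows, and a gene left out by a filter on low values counts as stable if every fit that kept it called it. For calls that were not stable, the highest adjusted p over the settings is given where the gene is described singly.

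hep itself did not differ detectably. Its main probe set read 3315, 3515 and 3653 in LOF embryos and 3567, 2878 and 4044 in WT embryos, with overlapping groups (log2 change 0.01, SE 0.12, adjusted p = 0.97). The other probe set of hep read 937, 1408 and 954 in LOF embryos and 1470, 1196 and 1535 in WT embryos (log2 change -0.37, adjusted p over probe sets 0.567). The position of the probes relative to the lesions of both alleles is unknown here, and the hep values therefore do not check the labels. The marker y, mutant in the LOF stock, also did not differ detectably, with 867, 1139 and 849 in LOF embryos and 909, 919 and 830 in WT embryos (adjusted p = 0.716).

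Among 25 measured genes of the JNK pathway, 1 rose and 0 fell, which is 4% against 4.72% over all genes, and their median change was -0.08. slpr, which encodes the kinase Slipper upstream of Hep, read 1876, 1972 and 2102 in LOF embryos, against 1193, 1212 and 1564 in WT embryos. All LOF arrays lay above all WT arrays (log2 change 0.59, SE 0.12, adjusted p = 0.0211), but the call was not stable: the adjusted p lay above the threshold, at up to 0.096, when any 1 LOF array, WT replicate 1 or WT replicate 2 was left out. bsk, the JNK gene, read 7132, 6034 and 5523 in LOF embryos and 8151, 9668 and 8559 in WT embryos (log2 change -0.50, adjusted p = 0.0896). Its groups did not overlap, yet it missed the threshold. Jra read 1473, 1448 and 1785 in LOF embryos and 2293, 1955 and 1779 in WT embryos, with overlapping groups (adjusted p = 0.171).

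Among 17 genes described as JNK targets in earlier work, 0 rose and 2 fell (11.8%, against 3.37% of all genes), both for integrin subunits. puc read 1739, 1813 and 1704 in LOF embryos and 2550, 2016 and 2347 in WT embryos, a log2 change of -0.39 (SE 0.12, adjusted p = 0.0832). The LOF arrays of puc lay below all WT arrays without passing the threshold, while its GOF arrays read 6435, 5278 and 6712. dpp read 514, 513 and 537 in LOF embryos and 483, 491 and 575 in WT embryos, with overlapping groups (log2 change 0.02, SE 0.09, adjusted p = 0.938). scaf, which encodes a protease homologue without activity, read 5649, 5647 and 5647 in LOF embryos and 5169, 5432 and 5354 in WT embryos (log2 change 0.09, adjusted p = 0.601). Its LOF arrays lay above all WT arrays without passing the threshold. chic, which encodes profilin, had a change of 0.47 (adjusted p = 0.131) and ena, an actin filament regulator, one of -0.55 (adjusted p = 0.169).

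Of 27 genes for integrins, their adaptors and basement membrane, 3 fell (11.1%, against 3.37% of all genes) and 0 rose. The list as a whole was not lower: 18 of its genes had a change above 0, and the median was 0.07. scb, the αPS3 integrin subunit, read 147, 167 and 167 in LOF embryos and 277, 412 and 402 in WT embryos. All LOF arrays were below all WT arrays, and the log2 change was -1.16 (SE 0.19, adjusted p = 0.00769), which is 2.23-fold lower, or 1.74-fold with base e. mys, the βPS subunit that pairs with the α subunits, read 1970, 1780 and 2233 in LOF embryos and 2923, 3670 and 3443 in WT embryos. Its change was -0.75 (SE 0.11, adjusted p = 0.004), 1.68-fold lower or 1.43-fold with base e. Fak, the focal adhesion kinase, read 652, 660 and 628 in LOF embryos and 1030, 1099 and 1022 in WT embryos (log2 change -0.70, SE 0.09, adjusted p = 0.00149). All 3 calls were stable. In GOF embryos scb read 569, 386 and 646, and the difference GOF minus LOF passed its own test (adjusted p = 2.73e-05). mys and Fak were lower in GOF than in WT embryos as well, at 2358, 2328 and 2352 for mys and at 604, 697 and 669 for Fak. The LOF and GOF comparisons share the WT arrays. The other 24 genes of the list did not pass the threshold, among them the α subunit gene mew (log2 change 0.44, adjusted p = 0.193), the kinase-like adaptor gene Ilk (-0.22, adjusted p = 0.275) and rhea, the talin gene (0.09, adjusted p = 0.736).

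**Figure D2:**
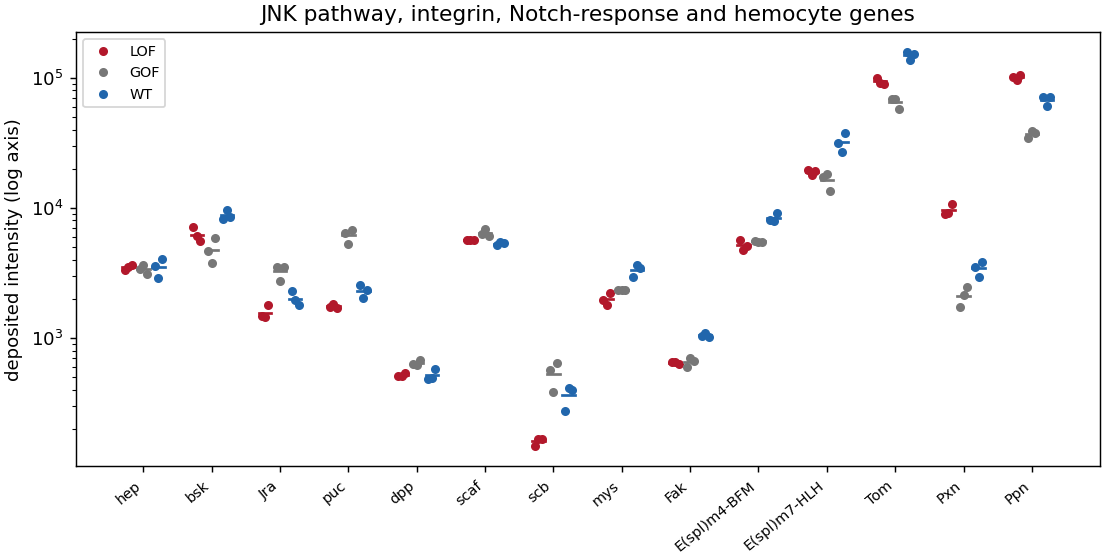
Deposited intensity (log axis) of 14 genes on every array of the LOF (red), GOF (grey) and WT (blue) groups, with points for arrays and bars for the mean of 3 arrays. LOF and WT points of scb, mys, Fak, E(spl)m4-BFM, E(spl)m7-HLH, Tom, Pxn and Ppn do not overlap, whereas those of hep, Jra and dpp do. The groups of bsk, puc and scaf do not overlap either, yet these genes did not pass the threshold.

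Genes that respond to Notch fell in part. The Notch receptor, once cleaved, switches on the Enhancer of split complex, which holds bHLH repressor genes and Bearded-family genes, whose products inhibit the ubiquitin ligase Neuralized. Of 19 genes of this pathway measured, 5 fell (26.3%, against 3.37% of all genes) and 0 rose. The median change was -0.34 against 0.02 over all genes. E(spl)m4-BFM, a Bearded-family gene, read 5677, 4774 and 5111 in LOF embryos and 8133, 7910 and 9139 in WT embryos (log2 change -0.70, SE 0.09, adjusted p = 0.00278). Tom, of the same family, read 99418, 91580 and 89801 in LOF embryos and 157782, 136577 and 151874 in WT embryos (log2 change -0.67, SE 0.10, adjusted p = 0.00416). Both calls were stable and their groups did not overlap. E(spl)m7-HLH, a bHLH repressor gene, read 19394, 17873 and 19059 in LOF embryos and 31763, 27087 and 37694 in WT embryos (log2 change -0.77, SE 0.14, adjusted p = 0.011). Its adjusted p was 0.0548 without LOF replicate 2 and 0.0523 without WT replicate 1. E(spl)m5-HLH fell by 0.59 (highest adjusted p 0.112, without LOF replicate 2) and the Bearded-family gene Ocho fell by 0.49 (highest 0.124, without LOF replicate 2). Brd, the founding member of the family, had a change of -0.60 (adjusted p = 0.0622), E(spl)m2-BFM one of -0.59 (0.0578) and E(spl)malpha-BFM one of -0.53 (0.214). The groups of Brd and E(spl)malpha-BFM overlapped. E(spl)m3-HLH changed less, by -0.21 with overlapping groups (adjusted p = 0.45). E(spl)mdelta-HLH, E(spl)m6-BFM and E(spl)mbeta-HLH did not pass the threshold either. The ligand gene Delta read 3082, 2633 and 2969 in LOF embryos and 1537, 1288 and 1757 in WT embryos, so its groups did not overlap, but the change of 0.93 had an SE of 0.34 and missed the threshold (adjusted p = 0.152). The number of members that fell was 2 without LOF replicate 2 or WT replicate 1, 3 without LOF replicate 1 or 3, and 7 without WT replicate 2. E(spl)m4-BFM and E(spl)m5-HLH are neighbours in the genome, and both fell.

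The deepest falls were of genes outside these pathways. Tektin-C, a filament protein of ciliary and flagellar axonemes, read 116, 102 and 121 in LOF embryos and 1158, 997 and 1324 in WT embryos. The groups were far apart (log2 change -3.34, SE 0.12, adjusted p = 7.61e-08), at 10.1-fold lower or 4.98-fold with base e. The other 16 genes for cilia and chordotonal organs did not pass the threshold, and the list's median was 0.01. CG8066 read 261, 258 and 323 in LOF embryos and 2015, 1771 and 1915 in WT embryos (log2 change -2.76, SE 0.12, adjusted p = 2.66e-07), and its other probe set read 280, 188 and 180 in LOF embryos and 1018, 1142 and 1041 in WT embryos. Both probe sets fell by more than the spread between arrays. Uhg1, a host gene of small nucleolar RNAs, read 640, 458 and 511 in LOF embryos and 2095, 2625 and 4569 in WT embryos (log2 change -2.46, SE 0.26, adjusted p = 0.000663). WT replicate 3 of Uhg1 was far above the other WT arrays. mTerf3, a mitochondrial protein of the transcription termination factor family, read 178, 183 and 165 in LOF embryos and 943, 882 and 778 in WT embryos (log2 change -2.30, SE 0.10, adjusted p = 2.66e-07). Under base 2 these 4 genes were the ones that fell at least 4-fold (1 with base e), and their calls were stable.

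**Figure D3:**
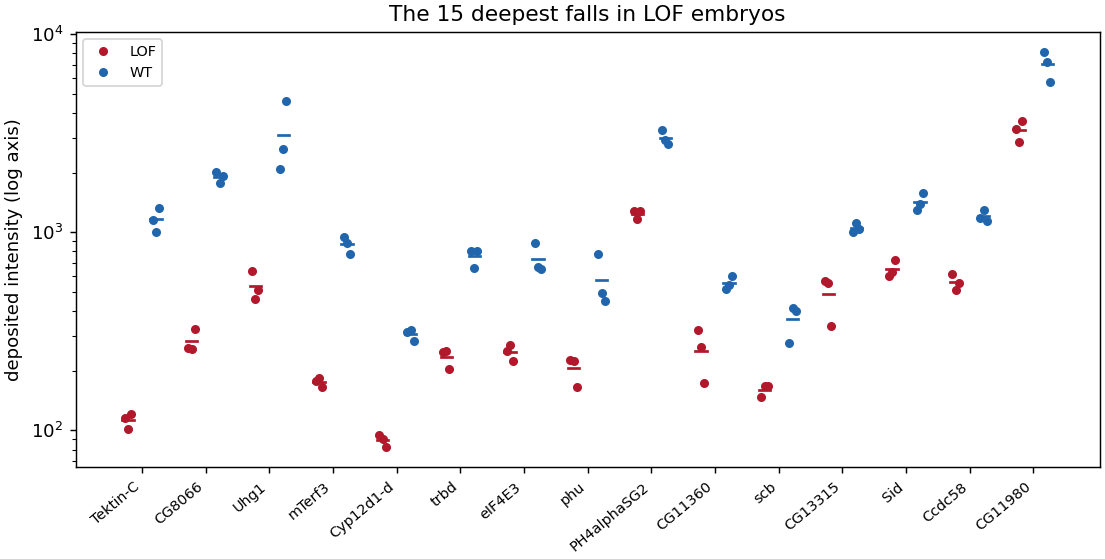
Deposited intensity (log axis) of the 15 deepest falls on every LOF (red, left) and WT (blue, right) array, with points for arrays and bars for the mean of 3 arrays. Separate groups were a condition for being shown, so the LOF points lie below the WT points in every gene. The genes run from Tektin-C at 102 to 121 against 997 to 1324 to CG11980 at 2865 to 3659 against 5751 to 8113.

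Smaller stable falls followed. Cyp12d1-d, a cytochrome P450 gene of mitochondria, read 95, 90 and 82 in LOF embryos and 314, 320 and 281 in WT embryos (log2 change -1.77, adjusted p = 7.83e-05). A near-identical copy, Cyp12d1-p, can share its probes, so the value is uncertain for either gene. trbd, the deubiquitinase Trabid, read 248, 250 and 203 in LOF embryos and 806, 656 and 799 in WT embryos (log2 change -1.69). eIF4E3, a cap-binding translation factor, read 251, 269 and 225 in LOF embryos and 881, 668 and 649 in WT embryos (log2 change -1.55). The groups of these genes lay apart without exception. PH4alphaSG2, a prolyl 4-hydroxylase subunit of the salivary gland, read 1277, 1163 and 1272 in LOF embryos and 3278, 2924 and 2802 in WT embryos (log2 change -1.28, SE 0.10, adjusted p = 7.83e-05). Its relatives did not fall with it. Of 6 prolyl 4-hydroxylase genes, listed after the values were seen, 2 rose and 1 fell, with a median change of 0.01. PH4alphaNE1 rose by 0.48 (highest adjusted p 0.0775) and PH4alphaEFB by 0.50 (highest 0.147), both with the mean of their probe sets. Further stable falls were those of phu (-1.45), Sid, a stress-induced DNase (-1.13), CG13315 (-1.14), Ccdc58 (-1.10), CG11980 (-1.09) and Cyp9f2, another cytochrome P450, in both of its probe sets (-1.01 and -1.32). CG11360 fell by 1.17, but its adjusted p was 0.0598 without LOF replicate 2, 0.0542 without LOF replicate 3 and 0.0624 without WT replicate 1.

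Several of the deepest falls were as low in GOF embryos, which share the WT arrays with this comparison. Tektin-C read 88, 97 and 104 in GOF embryos, mTerf3 193, 192 and 215, and eIF4E3 226, 209 and 202. For these 3 genes GOF and LOF did not differ past the threshold (adjusted p = 0.165, 0.165 and 0.192). CG8066 read 1752, 1376 and 1429 in GOF embryos, far above LOF embryos (adjusted p of the difference 4.56e-08). trbd read 548, 556 and 449 in GOF embryos, between both other groups (adjusted p of GOF minus LOF 2.26e-05).

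The largest rise among changed genes was that of Pxn. Pxn encodes peroxidasin, a matrix peroxidase made by hemocytes. It read 8963, 9125 and 10739 in LOF embryos and 3507, 2968 and 3853 in WT embryos, which did not overlap (log2 change 1.48, SE 0.14, adjusted p = 0.000263). That is 2.80-fold higher, or 2.04-fold with base e, and the only rise of at least 2-fold under base e. GOF arrays of Pxn read 1723, 2144 and 2451.

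Other stable rises were of genes with diverse roles. tara, a SERTA-domain regulator of transcription and the cell cycle, read 3182, 3575 and 4495 in LOF embryos and 1057, 1394 and 2266 in WT embryos (log2 change 1.31, SE 0.23, adjusted p = 0.0108). zfh1, a zinc finger homeodomain factor of mesoderm, hemocytes and motor neurons, read 10754, 10790 and 10123 in LOF embryos and 3716, 4570 and 6149 in WT embryos (log2 change 1.16, SE 0.16, adjusted p = 0.00309). Rdh, named as a retinol dehydrogenase, read 5571, 5319 and 4947 in LOF embryos and 2422, 2371 and 1838 in WT embryos (log2 change 1.26, SE 0.11, adjusted p = 0.000178). All LOF arrays of these genes were above all WT arrays, by the narrowest margin in tara. CG11883 rose with the smallest p of any rise, at 122, 118 and 134 in LOF embryos and 49, 49 and 55 in WT embryos (log2 change 1.27, SE 0.09, adjusted p = 3.44e-05). The WT values of CG11883 are close to the lowest intensity in the table, which was 29. Smaller stable rises (log2 change) were also found for GILT3, a lysosomal thiol reductase (1.11), Cyp6a16, a cytochrome P450 (1.09), CG4563 (1.13), CG9416 (1.04) and the serpin gene Spn42De (0.99).

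**Figure D4:**
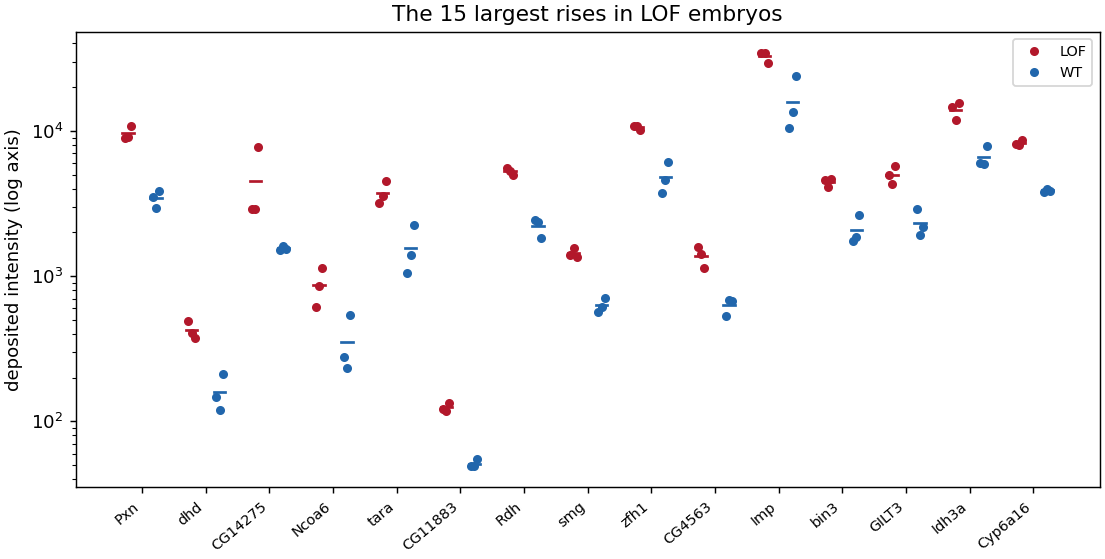
Deposited intensity (log axis) of the 15 largest rises on every LOF (red, left) and WT (blue, right) array, with points for arrays and bars for the mean of 3 arrays. LOF points lie above WT points in each gene, which was a condition for being shown. However, 1 LOF array of CG14275 and WT replicate 3 of Imp and tara stand away from the others of their group.

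Of the 15 largest rises, 6 were not stable. CG14275 read 2910, 2909 and 7795 in LOF embryos and 1505, 1624 and 1549 in WT embryos (log2 change 1.37), with LOF replicate 3 far above the others, and its adjusted p lay between 0.0546 and 0.0963 when WT replicate 1, 2 or 3 was left out. Ncoa6, a nuclear receptor coactivator, rose by 1.36 (highest adjusted p 0.107, without WT replicate 1). Imp, an RNA-binding protein, read 34434, 34440 and 29272 in LOF embryos and 10470, 13458 and 23820 in WT embryos (log2 change 1.12), and its adjusted p reached 0.192 without WT replicate 1. bin3, a methyltransferase homologue, rose by 1.12 (highest 0.0839, without WT replicate 1) and Idh3a, a subunit of mitochondrial isocitrate dehydrogenase, by 1.09 (highest 0.0669, without WT replicate 1). The other was dhd, described with the maternal genes.

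The rise of Pxn was not shared by most genes of hemocytes, the embryonic blood cells that engulf dying cells and lay down matrix. Of 23 hemocyte genes measured, 3 rose (13%, against 1.36% of all genes) and 0 fell, and the median change was 0.03. The summed intensity of the list was 204538 to 222650 on LOF arrays and 151378 to 183287 on WT arrays. Over the 20 genes that did not pass it was 72319 to 75082 on LOF arrays and 68437 to 84867 on WT arrays, so the difference lay in the 3 that rose, mostly in the bright gene Ppn. Here too the 20 genes were set apart by these same values, and their sum does not show that each was unchanged. Ppn, the matrix protein papilin, read 100849, 95603 and 105854 in LOF embryos and 71033, 60560 and 71164 in WT embryos (log2 change 0.58, SE 0.10, adjusted p = 0.00828). PPO2, a prophenoloxidase of crystal cells, read 29337, 27491 and 30975 in LOF embryos and 23880, 19413 and 20845 in WT embryos (log2 change 0.46, SE 0.11, adjusted p = 0.0413). Both rose in the brighter of their probe sets alone: the other set had a change of -0.39 for Ppn and -0.24 for PPO2, and with the mean of both sets the adjusted p was 0.721 for Ppn and 0.631 for PPO2. The call of PPO2 also failed when any 1 LOF or WT array was left out, at up to 0.13 without LOF replicate 3. The collagen genes Col4a1 and vkg, which hemocytes express strongly, overlapped between groups, with Col4a1 at 4780, 6204 and 5036 in LOF embryos and 5586, 4521 and 4866 in WT embryos. The blood cell markers Hml, eater and NimC1 read 43 to 70 on LOF arrays and 44 to 69 on WT arrays, near the lowest intensity in the table. crq, a scavenger receptor of phagocytic hemocytes, had a change of -0.40 (adjusted p = 0.0968). Whether the number of hemocytes differed was not tested.

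Some RNAs of the egg and early embryo were higher in LOF embryos. Of 20 genes for maternal determinants and egg activation, 4 rose (20%, against 1.36% of all genes) and 0 fell. Of the 20, 17 had a change above 0, and the median was 0.24. smg, the repressor Smaug that marks maternal RNAs for decay, read 1390, 1566 and 1356 in LOF embryos and 566, 617 and 709 in WT embryos (log2 change 1.19, SE 0.14, adjusted p = 0.00102), and its call was stable. dhd, a germline thioredoxin, read 494, 409 and 372 in LOF embryos and 147, 120 and 211 in WT embryos (log2 change 1.44, SE 0.27, adjusted p = 0.0121). Its adjusted p was 0.0558 without LOF replicate 1, 0.0539 without LOF replicate 2 and 0.0621 without WT replicate 1. swa, needed to anchor bicoid RNA, read 200, 185 and 165 in LOF embryos and 110, 105 and 101 in WT embryos (log2 change 0.79), and twe, the Cdc25 phosphatase of meiosis, read 344, 353 and 321 in LOF embryos and 175, 219 and 197 in WT embryos (log2 change 0.79). Both missed the threshold without LOF replicate 1, LOF replicate 2 or WT replicate 1, at up to 0.0547 for swa and 0.0882 for twe. With a pseudocount of 64 both missed it as well (0.0598 for swa and 0.0552 for twe). swa also missed it with the mean of its probe sets (0.0553), and its other set had a change of 0.03. The number of genes in the list that rose was 1 when each of these 3 arrays was left out in turn. dah, which acts when the blastoderm forms cells, rose by 0.93 (adjusted p 0.0539 without LOF replicate 2 and 0.0565 without WT replicate 1), and it was the 1 gene of 11 for cellularisation that passed. mael, of the piRNA pathway, rose by 0.57 as 1 of 16 germ line genes (highest adjusted p 0.139, without LOF replicate 1). bcd read 324, 235 and 136 in LOF embryos and 130, 195 and 129 in WT embryos, with overlapping groups (adjusted p = 0.603), and plu, which acts at the start of embryonic cycles, had a change of 0.37 (adjusted p = 0.0538). The same RNAs were far higher in GOF embryos: smg read 10412, 14359 and 14523, twe 3677, 5724 and 5707, swa 1930, 1614 and 2534 and dah 14642, 12510 and 17300. Whether the LOF and WT collections differed in their share of early embryos was not tested.

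In the dorsal tissues, 2 of 15 amnioserosa genes fell (13.3%, against 3.37% of all genes) and 0 rose, with a median change of -0.05. The amnioserosa is the extraembryonic sheet that the epidermis covers. Its summed marker intensity was 70987 to 79407 on LOF arrays and 93327 to 96213 on WT arrays. Over the 13 genes that did not pass, the sum was 51439 to 54802 on LOF arrays and 50466 to 57935 on WT arrays, so the difference lay in the genes that fell, mostly in the bright gene Ance. The 13 genes were set apart by these same values, so their sum does not show that each was unchanged. Ance, a peptidase gene expressed strongly there, read 21108, 24353 and 19279 in LOF embryos and 45334, 35014 and 37663 in WT embryos (log2 change -0.86, SE 0.12, adjusted p = 0.0029), a stable fall. pnr, a GATA factor of the dorsal ectoderm, read 322, 252 and 269 in LOF embryos and 413, 378 and 418 in WT embryos (log2 change -0.53, highest adjusted p 0.105, without LOF replicate 2). Doc1, a T-box factor of the amnioserosa, had a change of -0.28 (adjusted p = 0.0916) and Kr one of -0.25 (adjusted p = 0.277). peb, the zinc finger factor Hindsight, read 4185, 4405 and 4088 in LOF embryos and 1553, 1483 and 3430 in WT embryos. Its groups did not overlap, and WT replicate 3 stood far above the other WT arrays (log2 change 1.08, SE 0.34, adjusted p = 0.0949). Inx3, a gap junction subunit, fell by 0.61 as 1 of 7 innexins (highest adjusted p 0.103, without LOF replicate 2). Whether the amnioserosa was smaller was not tested.

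Genes of epidermal patterning and junctions held 1 or 2 calls a list, at shares of 6.25% to 11.8% against 4.72% over all genes. en, the homeodomain factor of posterior compartments, read 2778, 2742 and 2398 in LOF embryos and 3809, 3701 and 3805 in WT embryos (log2 change -0.52, SE 0.10, adjusted p = 0.0179). It was the 1 of 16 segment polarity and denticle genes that changed, and its adjusted p was 0.0562 without LOF replicate 2, 0.0676 without LOF replicate 3 and 0.0696 without WT replicate 1. Of 17 septate junction genes 2 fell, crok (-0.74, highest adjusted p 0.0996) and the claudin gene kune (-0.47, highest 0.117), and neither was past the threshold without LOF replicate 1, LOF replicate 2 or WT replicates 1 or 3. Of 16 genes for junctions and polarity, par-6 fell by 0.46 (highest adjusted p 0.103, without LOF replicate 2). stan, the cadherin Flamingo, rose by 0.63 as 1 of 9 planar polarity genes (highest 0.108, without LOF replicate 3), and dpy, a giant protein of the apical matrix, rose by 0.73 (0.0504 without WT replicate 1). Neither the 15 actin and myosin genes nor the 58 Cpr and 20 Tweedle cuticle protein genes held a call. Their medians were -0.01, 0.10 and 0.11. All 20 Tweedle genes had a change above 0, but only 1 of them had all LOF arrays above all WT arrays (13.1% of all genes did). The 20 signs come from the same 6 arrays and are not independent, so they do not show a rise of the family.

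Lists for other tissues held between 0 and 3 calls each, at shares of 0% to 27.3% against 4.72% over all genes. Of 20 muscle genes 2 rose: sls, a titin relative, rose by 0.75, in 1 of its 4 probe sets (adjusted p 0.442 with the mean of the sets), and kirre, of myoblast fusion, by 0.44 (highest adjusted p 0.155, without WT replicate 1). Of 15 regulators of heart and mesoderm, 1 rose and 2 fell: zfh1 rose and pnr fell, as given above and for the amnioserosa, and Hand, a heart factor, fell by 0.54 (highest 0.1, without LOF replicate 2). Of 11 salivary gland genes 2 fell and 1 rose. These were PH4alphaSG2, described above, sll, a transporter of the sulfate donor PAPS (-0.60, highest adjusted p 0.0731, without LOF replicate 2), and ps, the RNA-binding protein Pasilla (0.98, in 1 of its 4 probe sets, highest 0.194, without WT replicate 1). pon, which partitions Numb in dividing neuroblasts, read 2349, 2615 and 2393 in LOF embryos and 1755, 1642 and 1664 in WT embryos, a stable rise of 0.54 (adjusted p = 0.00756) and the only call among 19 neuroblast genes. The synaptic gene brp was the 1 call among 17 neuronal genes (0.44, highest adjusted p 0.353, with the mean of its probe sets). The lists for glia (12 genes), midgut and fat body (14) and axon guidance (11) held 0 calls. The median changes of the muscle, heart, salivary gland, neuronal, neuroblast, glial, gut and guidance lists lay between -0.10 and 0.10.

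Most genes for mitochondrial ribosomal proteins read lower in LOF embryos, though few passed the test. Of 64 measured, 57 had a change below 0, 22 had all LOF arrays below all WT arrays (12.5% of all genes did) and the median was -0.22, against -0.11 for 37 cytosolic ribosomal proteins and 0.02 over all genes. 7 mitochondrial members fell (10.9%, against 3.37% of all genes) and 0 rose, while 0 of the cytosolic ones passed. mRpL32 read 468, 503 and 478 in LOF embryos and 879, 825 and 869 in WT embryos (log2 change -0.83, SE 0.10, adjusted p = 0.00102), the stable call among them. mRpL33 read 1582, 1374 and 1201 in LOF embryos and 2099, 3000 and 3279 in WT embryos (log2 change -0.99, highest adjusted p 0.106, without LOF replicate 2). The count of members that fell was 1 without LOF replicate 2, 2 without WT replicate 1, 3 without LOF replicate 1, 4 without WT replicate 2 or GOF replicate 2 and 10 without GOF replicate 3. Of 66 genes of oxidative phosphorylation, ND-20L rose by 0.39 (highest adjusted p 0.118, without LOF replicate 2) and ND-13A fell by 0.59 (0.0575 without LOF replicate 2 and 0.0572 without WT replicate 1).

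**Figure D5:**
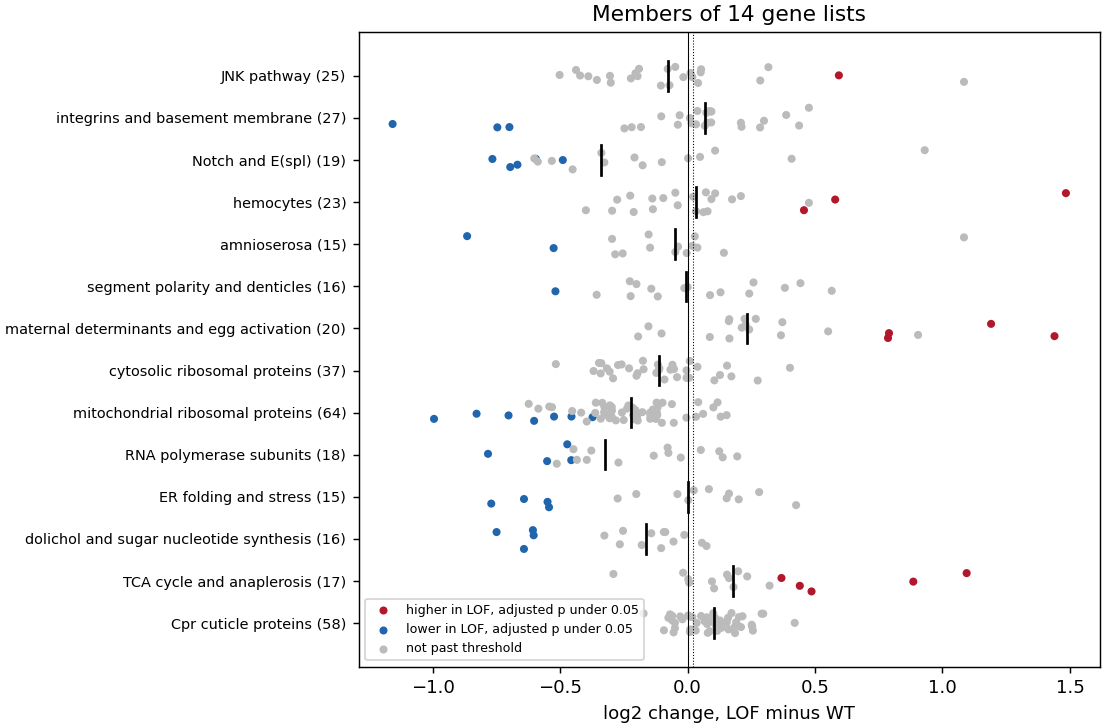
Log2 change (LOF minus WT) of each measured member of 14 gene lists, with red and blue for members past the threshold, grey for the others, a black bar at the list's median and a dotted line at the median of all genes. The median of the 64 mitochondrial ribosomal protein genes is -0.22 and that of the 20 maternal genes 0.24.

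The secretory pathway was among the groups put together after the values were seen, and its counts are descriptions. Over all genes 3.37% fell. Of 9 genes of the ER membrane complex 2 fell, EMC2A and EMC5. EMC2A read 8675, 7689 and 9877 in LOF embryos and 15315, 14842 and 12527 in WT embryos (log2 change -0.70, adjusted p = 0.00754), a stable call, and EMC5 fell by 0.73 (0.0606 without LOF replicate 2). Of 5 oligosaccharyltransferase subunits 2 fell, with Dad1 at 22215, 20325 and 26200 in LOF embryos and 51253, 42891 and 48093 in WT embryos (log2 change -1.05, adjusted p = 0.000894, stable). Of 16 genes that make dolichol-linked and nucleotide sugars 4 fell, among them Gmppb, which makes GDP-mannose, at 3774, 3695 and 3825 in LOF embryos and 6557, 5624 and 5491 in WT embryos (log2 change -0.64, stable). Of 15 genes for folding and stress in the endoplasmic reticulum 4 fell, with the stress sensor Atf6 as the stable one (-0.77, adjusted p = 0.00623). The counts of the sugar and the folding list were each 1 without WT replicate 1. The TRAPP tether (3 of 6 genes), SNARE cycle (4 of 11) and ESCRT complexes (3 of 13) held falls and no rise, but 0 of those calls were left without LOF replicate 2 or WT replicate 1. The 10 genes of the COPI and COPII coats held 0 calls.

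Lists for RNA machinery, again put together after the values were seen, held mostly falls, as did the calls over all genes (365 of 512). They were chosen with the falls known, so their counts are descriptions only. Over all genes 3.37% fell. All 3 measured proteins of the H/ACA particle, which guides pseudouridine formation in RNA, fell. Nop60B, its pseudouridine synthase, read 288, 269 and 261 in LOF embryos and 438, 526 and 603 in WT embryos (log2 change -0.92, SE 0.13, adjusted p = 0.00342, stable). Nop10 fell by 0.74 (highest adjusted p 0.0839) and NHP2 by 0.64 (highest 0.152), both without LOF replicate 2. SmF, a core protein of spliceosomal particles, read 15468, 13625 and 13787 in LOF embryos and 23752, 21272 and 21377 in WT embryos (log2 change -0.63, adjusted p = 0.00621, stable). Of 18 RNA polymerase subunits 4 fell (22.2%) and of 11 exosome genes 3 (27.3%). In each of these lists 0 calls were left without LOF replicate 2 or WT replicate 1. Of 5 genes of the CCR4-NOT deadenylase 2 fell (40%), with 0 left without WT replicate 1. Among 20 Mediator genes 1 fell (5%, near the share over all genes), MED10 (-0.72, highest adjusted p 0.106). The basal transcription factors went both ways: of 9 genes, TfIIFbeta rose by 0.82 (highest adjusted p 0.152) and TfIIEbeta fell by 0.51 (highest 0.0802). Outside RNA machinery, 3 of 6 genes of the chaperone prefoldin and 3 of 9 kinetochore genes fell, again with 0 left without LOF replicate 2 or WT replicate 1. Both lists were also put together after the values were seen.

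Enzymes of central metabolism rose in part. Of 17 genes of the citrate cycle and its filling reactions, 5 rose (29.4%, against 1.36% of all genes) and 0 fell, with a median of 0.18. This list was also chosen after the values were seen, so its count is a description only. Pepck2, a phosphoenolpyruvate carboxykinase, read 11038, 9565 and 15746 in LOF embryos and 6686, 5311 and 7423 in WT embryos (log2 change 0.89, adjusted p = 0.0179, and 0.0644 without WT replicate 1 and 0.0596 without WT replicate 2). 0 of the 5 calls were left without WT replicate 1, and 1 each without LOF replicate 1, LOF replicate 3 or WT replicate 2. Of 11 glycolysis genes, listed in the same way, 2 rose and 1 fell (27.3%, against 4.72% over all genes). Aldolase (Ald1) rose by 0.85 (highest adjusted p 0.116, without LOF replicate 2), and fbp, the opposing fructose bisphosphatase, fell by 0.71 (highest 0.116). Pfrx, whose product controls the level of a regulator of glycolysis, rose by 0.44 (highest 0.115, without LOF replicate 1). Of 83 cytochrome P450 genes 1 rose and 3 fell, which is 4.82% against 4.72% over all genes. Of 34 glutathione S-transferases 1 rose and 2 fell (8.82%).

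Among genes of apoptosis, grim, an activator of cell death, averaged 632.7 ± 82.6 in LOF embryos and 947.3 ± 59.1 in WT embryos (SD), with no overlap (log2 change -0.59, adjusted p = 0.0112, and 0.0575 without LOF replicate 2), the only call among 14 measured. Of 13 antioxidant genes 1 fell and 2 rose (23.1%, against 4.72% over all genes), with a median change of 0.12. Trx2, a thioredoxin, read 7876, 6978 and 7962 in LOF embryos and 10639, 11391 and 12494 in WT embryos (log2 change -0.60, adjusted p = 0.00828, stable). cnc, a stress-response factor, rose by 0.65 (highest adjusted p 0.0759), and 2 of its 4 probe sets passed the threshold over all probe sets. Men, the NADP-dependent malic enzyme, rose by 0.44 (highest 0.312, with the mean of its probe sets, and 0.108 without WT replicate 1). Hsc70-4, a constitutive chaperone, rose by 0.44 (highest 0.0621, without WT replicate 1), and the NF-κB factor Rel fell by 0.39 (highest 0.148, without LOF replicate 2). The lists for wound response (12 genes), JAK-STAT and EGFR (13), ecdysone (22), Hox genes (5), sex determination (14) and the proteasome (39) held 0 calls.

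Of the 512 changed genes, 50 had more than 1 probe set. In 14 of them the sets differed in sign, and in 4 every set passed. Changed genes that lie next to each other in the genome were found in 20 runs, of which 1 held 3 genes, KdelR, CG5188 and Bug22, all lower in LOF embryos. mTerf3 and CG5104, and rdgBbeta and Uhg1, were pairs that held 1 of the 4 deepest falls each. How many such runs a random order of genes would give was not tested, so the count does not show clustering.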

How the data were processed

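Per the submitters' processing notes the authors summarised the arrays with RMA, and the deposited values are linear intensities in whole numbers, 1 per probe set and array. No source used here names the RMA version. Of 14010 probe sets, the platform annotation pairs 12443 with 1 gene and 327 with several, leaving 1196 unnamed here beside 44 control sets. For the 1209 genes with more than 1 set, the set with the highest mean log2 value over 9 arrays stood for the gene. Group means of log2(value + 1) on 9 arrays were fitted with limma 3.58.1 in R 4.3.3 (6 residual and 5.39 prior degrees of freedom), and LOF minus WT was tested two-sided with no filter on low values. By gene number, 45 symbols had no match in the RefSeq gene table and were kept. Precision was limited by the 3 arrays of each group, with a median SE of 0.11. Tested on simulated data (10844 genes, 200 changed), the LOF against WT fit found 52.9% of changes of 0.5 on the log2 scale and 100% of larger ones, with 5.6% false calls. The simulated noise was independent for each gene and array. Deviations shared by the genes of an array were left out, so these rates do not measure the error of the calls made here.

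The genes, gene lists and alternatives were chosen with earlier results of these data known. The lists for secretion, RNA machinery, prefoldin, kinetochore, prolyl 4-hydroxylases and central metabolism were chosen after these values were seen. Named genes are the 15 largest rises and falls with separate groups, the largest with only a CG number, the 5 smallest p of each direction, changed or top members (up to 4 by p) of each list, those nearest the threshold, and hep, puc, dpp, scaf and y. bcd, plu, Brd, E(spl)m2-BFM, E(spl)malpha-BFM, Delta, Ilk, rhea, Kr, Jra, Col4a1, vkg, Hml, eater and NimC1 were named after their values were seen. So were E(spl)m3-HLH, E(spl)mdelta-HLH, E(spl)m6-BFM and E(spl)mbeta-HLH.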

Additional observations from a re-analysis of the deposited data

Results flagged for a closer look

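Probe sets outside the gene comparison held differences as well. Of 1196 probe sets that are unnamed here, 44 (3.68%) passed the threshold over all probe sets in LOF against WT embryos, 16 higher and 28 lower in LOF embryos. The deepest fall among them read 422, 406 and 456 in LOF embryos and 2520, 1947 and 2199 in WT embryos (log2 change -2.37), and the largest rise read 8466, 7158 and 10560 in LOF embryos and 3134, 3107 and 3867 in WT embryos (log2 change 1.36). Of 327 probe sets annotated to several genes, 14 (4.28%) passed, 1 higher and 13 lower in LOF embryos. Of the 44 control probe sets, 0 passed in limma.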

How the results depend on the processing

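The count of changed genes depended on single arrays. With 1 array left out it ranged from 138 to 716, with 41 to 240 genes higher and 97 to 476 lower in LOF embryos. A change of at least 1.5-fold under base 2 was found for 249 of the changed genes (70 higher and 179 lower). With base e it was found for 31 higher and 46 lower genes. A test against a change of 1.2-fold under base 2 called 54 (16 higher and 38 lower). Other scalings, pseudocounts, filters and moderations gave 422 to 602 genes, and a fit to the LOF and WT arrays alone gave 638. The LOF and WT replicate numbers share only a number: the deviations of same-numbered arrays correlated at 0.067, 0.187 and 0.112, and LOF replicate 3 correlated best with WT replicate 1 (0.203). With the replicate block 540 genes passed (176 higher and 364 lower).

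Among 3646 results for single genes in alternative settings, 582 lost the call and 30 gained it. Signs turned only in genes not called. hep had -0.177 with the mean of its probe sets, and -0.121 (without WT replicate 2) to 0.124 (without WT replicate 3) with 1 array left out. dpp had -0.017 under cyclic loess, and -0.028 (without WT replicate 1) to 0.098 (without WT replicate 3) with 1 array left out. y had -0.045 (without LOF replicate 2) to 0.167 (without LOF replicate 3).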
